A study of Mus musculus with 8 samples.

Results

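The ADAM and ADAMTS proteases described here are the products of 10 genes, Adam8, Adam9, Adam10, Adam12, Adam17, Adam19, Adamts1, Adamts2, Adamts4 and Adamts5, chosen by gene symbol out of 21848 genes listed for every library. All 10 were found in the gene lists, and the rule itself uses the names of the genes, although the family was picked with earlier results of these data known. Each is read here in single-cell RNA-seq of the photothrombotic (PT) lesion of the right sensorimotor cortex, 6 days after injury. The 8 libraries came from 8 mice, 4 fibrinogen-depleted (ancrod) mice and 4 saline-treated control mice. A first batch held 3 mice of each group and the other batch 1 of each.

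Ancrod, a snake venom enzyme that removes fibrinogen from plasma, was delivered at 2.4 U per day by an osmotic minipump implanted 2 days before PT, and control mice carried the same pump with saline. All mice were injured, so no uninjured level is given. The labels call the mice female, of genotype Bl/J6, and the study describes adult animals, giving C57BL/6N mice of both sexes in its methods; this difference was not resolved. No cell type was enriched, and the piece of cortex held the lesion together with spared tissue around it.

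ADAM proteases sit in the cell membrane and cut other membrane proteins close to the surface, a step known as ectodomain shedding that frees cytokines, growth factors and receptor domains. ADAMTS proteases are secreted, carry thrombospondin repeats that bind matrix, and cut proteoglycans, procollagens and other matrix proteins. Both families depend on a zinc ion held by histidines of the catalytic domain, and tissue inhibitors of metalloproteinases (TIMPs) restrain them. In the brain, Adam10 and Adam17 are known for processing amyloid precursor protein, Notch and tumor necrosis factor, and Adamts4 and Adamts5 for cutting the lecticans of the neural matrix.

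The zinc-binding site is what makes these proteins proteases, and its coding DNA is printed to show that every member carries the site intact. A search of each canonical coding sequence (GENCODE vM39, GRCm39) for histidine and glutamate codons at the spacing of the site found 1 match in each of the 10 genes. Capitals mark the codons of the zinc-binding histidines and of the catalytic glutamate, read 5′ to 3′ on the coding strand:
Adam8: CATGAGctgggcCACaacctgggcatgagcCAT
Adam9: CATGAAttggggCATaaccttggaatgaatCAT
Adam10: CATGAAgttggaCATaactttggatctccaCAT
Adam12: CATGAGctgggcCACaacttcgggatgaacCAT
Adam17: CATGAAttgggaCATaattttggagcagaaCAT
Adam19: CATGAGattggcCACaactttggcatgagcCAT
Adamts1: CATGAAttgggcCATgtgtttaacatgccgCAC
Adamts2: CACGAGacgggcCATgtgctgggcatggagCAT
Adamts4: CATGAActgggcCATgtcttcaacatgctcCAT
Adamts5: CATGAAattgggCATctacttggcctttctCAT

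Adam8 was identical to Adam12 and to Adam19 at 29 of the 33 bases, Adam12 and Adam19 at 28 and Adamts1 and Adamts4 at 27, whereas Adam10 and Adamts2 shared 15. In Adam8, Adam9, Adam12, Adam17 and Adam19 the site lay within exon 11. In Adam10 an intron interrupted it between exons 9 and 10, in Adamts1 and Adamts4 between exons 3 and 4, in Adamts2 between exons 7 and 8, and in Adamts5 between exons 2 and 3. The genes lie on chromosome 7 (Adam8, chr7:139558845-139572475, and Adam12, chr7:133484928-133833875), chromosome 8 (Adam9, chr8:25439626-25507096), chromosome 9 (Adam10, chr9:70586221-70687511), chromosome 12 (Adam17, chr12:21373510-21423672) and chromosome 11 (Adam19, chr11:45946775-46038172, and Adamts2, chr11:50492787-50698400). Adamts4 lies on chromosome 1 (chr1:171077986-171089841). Adamts1 (chr16:85590579-85600009) and Adamts5 (chr16:85653061-85698716) are neighbours on chromosome 16, 53051 bases apart.

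The libraries held between 97861434 and 122758649 unique molecular identifiers (UMIs) in control mice and between 126682918 and 142139441 in ancrod mice, without overlap. Within the droplets kept for analysis the groups overlapped, at 82133510 to 112074810 UMIs in control and 104613806 to 126868368 in ancrod mice. After filters on UMIs and mitochondrial content and removal of 2144 predicted doublets, 44072 cells remained, 22065 from control and 22007 from ancrod mice. No pair of libraries shared more than 15 cell barcodes. Cells were clustered without the ADAM and ADAMTS genes, and clusters were named from marker genes, which gave 15 named classes and 4411 cells left unnamed. Levels are given as CPM, the UMIs of a gene divided by all UMIs of a mouse and class and scaled to 1000000, and are compared between classes for 1 gene at a time. Fibroblast-like cells numbered 34 in saline mouse 3 and 90 in ancrod mouse 2, against 178 to 657 in the other 6 mice.

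Adam12, Adamts2, Adamts5 and Adam19 had most of their UMIs in fibroblast-like cells, the class into which perivascular fibroblasts (PVF) and scar fibroblasts would fall. The markers used do not tell these apart from other fibroblasts, such as those of the meninges. Adam12, a membrane protease known for cutting growth factor precursors and insulin-like growth factor binding proteins, reached 897, 666, 780 and 851 CPM in the 4 control mice and 697, 763, 685 and 493 CPM in the 4 ancrod mice in fibroblast-like cells. The values of the groups overlapped, and the lowest was that of ancrod mouse 4. The mean of 729 CPM ± 125 (SD, n = 8) was 3.58 times the next class, oligodendrocyte precursor-like cells at 204 CPM ± 118 (n = 6), and lay above it in 6 of 6 mice with both. Every other class had a mean of 19.4 CPM or less.

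Fibroblast-like cells supplied 95.2% ± 3.59 (SD, n = 8 mice) of all Adam12 UMIs, and 90.9% ± 3.07 of these cells held at least 1. After thinning to 2000 UMIs per cell the share was 59.4% ± 6.69. Without thinning, the lowest share was in neutrophil-like cells, at 0.116% ± 0.216, where the median depth was 4811 UMIs against 40986 in fibroblast-like cells. After thinning, the share was 0% in border-associated macrophage-like, dendritic cell-like, smooth muscle-like and ependymal-like cells. Droplets of at most 100 UMIs, which carry free RNA, held Adam12 at 46.6 CPM ± 27.1.

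**Figure D1:**
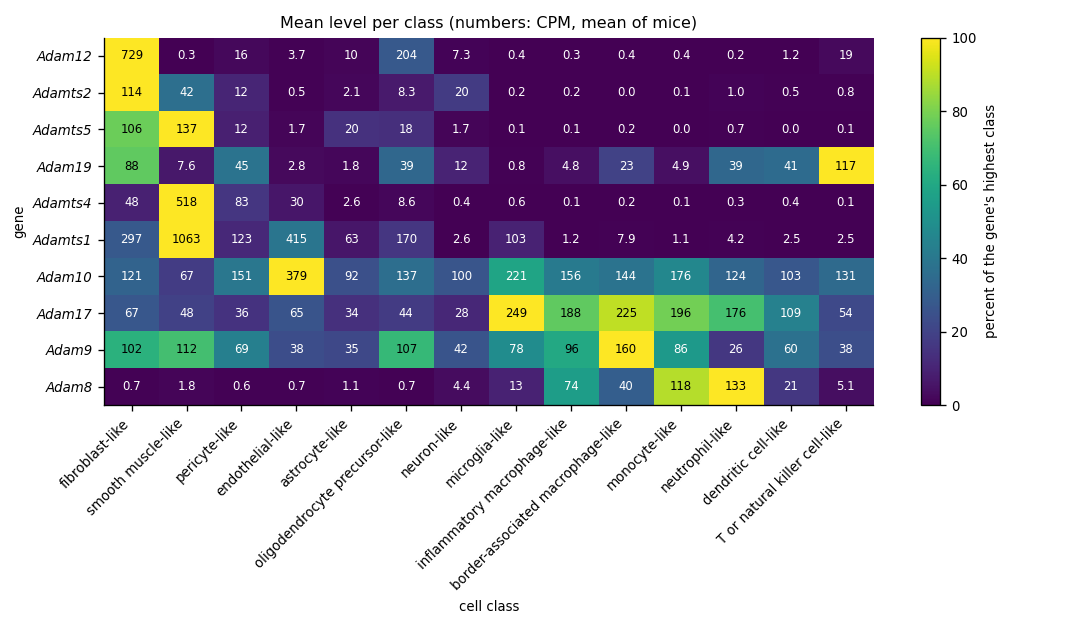
Mean level of each protease gene (rows) in 14 cell classes (columns); each number is CPM averaged over mice, and color is the percent of that gene's highest class. Adam12 peaks at 729 CPM in fibroblast-like cells, Adamts1 at 1063 CPM and Adamts4 at 518 CPM in smooth muscle-like cells, and Adam8 stays at or above 13 CPM only in myeloid classes.

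Within fibroblast-like cells Adam12 differed between clusters. The cluster led by Lama1, Cemip and Aldh1a2 had the highest mean, 967 CPM ± 130 (SD, n = 7 mice), and lay above the Col1a1, Col8a1 and Lrrc17 cluster (605 CPM ± 107, n = 8) in 7 of 7 mice that had both. It also lay above the Penk and Slc47a1 cluster (627 CPM ± 101, n = 6) in 5 of 5 mice and above the Lrrc15 and Fmod cluster (466 CPM ± 76.2, n = 7) in 7 of 7. A cluster led by Bpgm, Apod and Lum held 38.8 CPM ± 29.7 (n = 6), below the free RNA mean of 46.6 CPM. It rested on 40 Adam12 UMIs, and its median depth was 3957 UMIs, against 35921 to 61779 in the other fibroblast-like clusters. Its low level is therefore not read as a trait of a fibroblast type. The Lama1 cluster thus led in every mouse compared, whereas the Col1a1 and Penk clusters changed order between mice. Clusters were made from the same cells, and no test was run.

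Adamts2, the procollagen N-proteinase, was at 111, 110, 151 and 122 CPM in fibroblast-like cells of control mice and at 112, 93.4, 104 and 111 CPM in those of ancrod mice. Its mean of 114 CPM ± 17.0 (n = 8) was 2.74 times the next class, smooth muscle-like cells, in 8 of 8 mice, and fibroblast-like cells gave 92.0% ± 5.19 of its UMIs. Among the fibroblast clusters it was highest in the Penk and Slc47a1 cluster, at 199 CPM ± 27.1 (n = 6). That cluster lay above the Lama1 cluster (87.2 CPM ± 9.44) in each of the 5 mice with both, the reverse of their order for Adam12. Adamts2 had no UMI in the 904 border-associated macrophage-like cells.

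Adamts5, an aggrecanase, also had its highest cluster mean in the Penk and Slc47a1 cluster. That cluster held 228 CPM ± 81.9 (n = 6) and the Lama1 cluster 75.8 CPM ± 32.1 (n = 7). Over whole classes, however, its mean was higher in smooth muscle-like cells than in fibroblast-like cells. Adamts5 was at 80.1, 98.8, 172 and 67.4 CPM in smooth muscle-like cells of control mice and at 192, 163, 183 and 140 CPM in those of ancrod mice. Smooth muscle-like cells, 211 in all, averaged 137 CPM ± 48.8 and fibroblast-like cells 106 CPM ± 30.8 (n = 8 each). The class order held in 7 of 8 mice but reversed in the mean over control mice alone, where fibroblast-like cells had 112 CPM and smooth muscle-like cells 105 CPM. Monocyte-like and dendritic cell-like cells had no Adamts5 UMI.

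Adam19, a membrane protease known for roles in heart development and neuregulin shedding, was highest in T or natural killer cell-like cells, where control mice had 136, 117, 100 and 76.2 CPM and ancrod mice 164, 115, 118 and 105 CPM. Fibroblast-like cells followed at 88.5 CPM ± 10.9 against 117 CPM ± 25.7 (n = 8 each), a fold of 1.32 with overlapping ranges that held in 7 of 8 mice. Over all cells of a mouse, fibroblast-like cells supplied 59.6% ± 20.2 of Adam19 UMIs and T or natural killer cell-like cells 9.06% ± 5.97. Its lowest class was microglia-like cells, at 0.803 CPM.

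Adamts1 and Adamts4, secreted proteases that cut versican and aggrecan, were highest in smooth muscle-like cells. Adamts4 in these cells was at 276, 494, 879 and 395 CPM in control mice and at 515, 559, 620 and 405 CPM in ancrod mice. The mean of 518 CPM ± 181 (n = 8) was 6.25 times that of pericyte-like cells (82.9 CPM ± 50.0), in 8 of 8 mice, and the ranges did not overlap. Of all Adamts4 UMIs, however, 38.6% ± 18.7 lay in fibroblast-like cells, at a mean of 47.7 CPM, and 31.4% ± 9.93 in endothelial-like cells. Smooth muscle-like cells gave 12.7% ± 6.56 and pericyte-like cells 6.76% ± 4.70. Adamts1 averaged 1063 CPM ± 262 (n = 8) in smooth muscle-like cells, 2.56 times endothelial-like cells (415 CPM ± 109), again in 8 of 8 mice. The smallest Adamts1 value in smooth muscle-like cells was 703 CPM and the largest 1560 CPM. The summed level of 12 dissociation-response genes, such as Fos and Jun, was 16610 to 24390 CPM in smooth muscle-like cells. It was 10542 to 19473 CPM in endothelial-like and 8889 to 10993 CPM in microglia-like cells. Its part in the class order was not tested. Of all Adamts1 UMIs, 39.5% ± 9.47 lay in endothelial-like cells, 23.1% ± 13.5 in fibroblast-like cells and 23.8% ± 6.80 in microglia-like cells. The microglia-like level, 103 CPM ± 36.0, was below that of free RNA (99.8 CPM ± 25.7) in 4 of 8 mice. Of microglia-like cells 27.3% ± 6.88 held at least 1 Adamts1 UMI. Means in the other immune classes ran from 1.14 CPM (monocyte-like) to 7.91 CPM (border-associated macrophage-like). The part of free RNA in the microglia-like level was not tested.

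**Figure D2:**
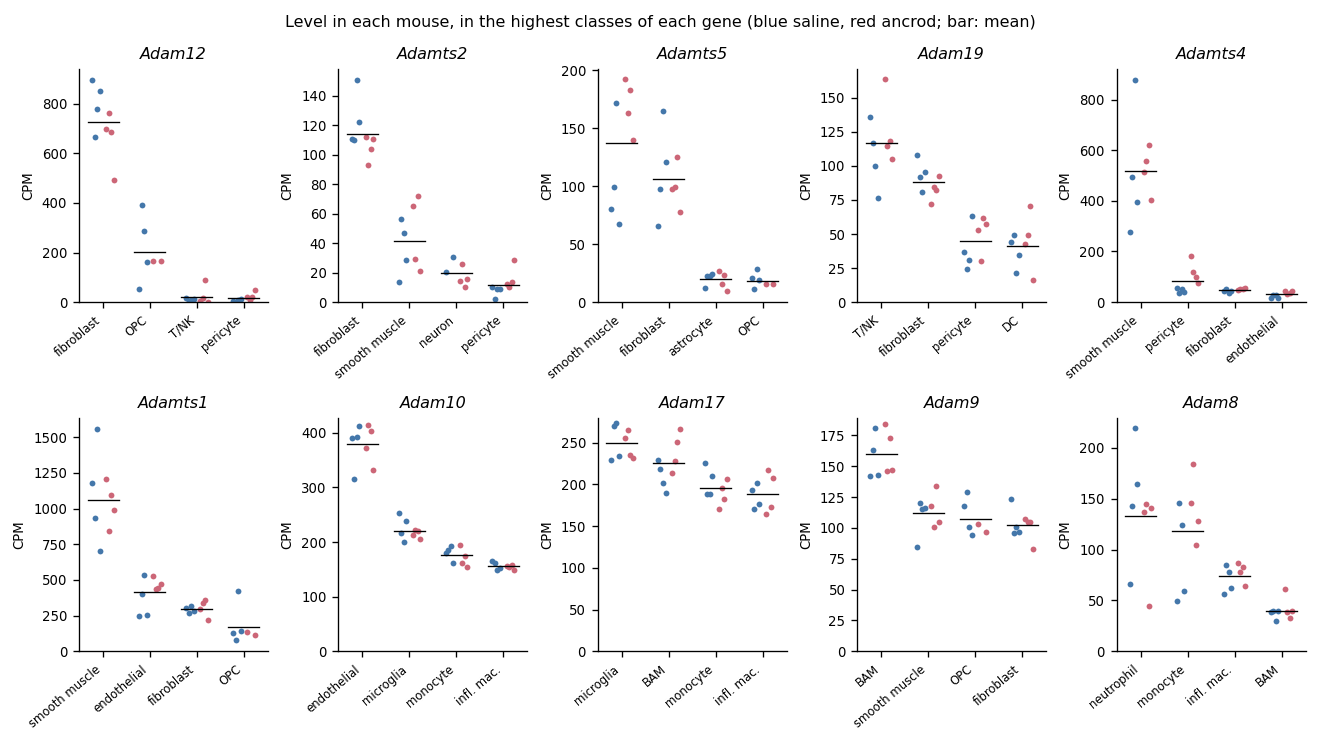
Level of each gene (CPM, y axis) in every mouse in its highest 4 classes (x axis), with blue points for saline, red points for ancrod and a bar at the mean over mice. OPC stands for oligodendrocyte precursor-like, BAM for border-associated macrophage-like, DC for dendritic cell-like and T/NK for T or natural killer cell-like. Adam12 in fibroblast-like cells runs from 493 to 897 CPM, and Adamts4 in pericyte-like cells from 36.6 to 184 CPM.

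Adam10, Adam17 and Adam9 had UMIs in every class, and free RNA held them at 154 CPM ± 17.0, 104 CPM ± 13.9 and 62.6 CPM ± 5.06. Of the 14 classes, Adam10 lay above free RNA in every mouse in 2, Adam17 in 4 and Adam9 in 6. These are not counts of expressing classes. Fibroblast-like cells lay below free RNA for Adam10 in 7 of 8 mice, yet 88.5% ± 4.25 of them held an Adam10 UMI. Adam10, the sheddase of Notch and cadherins, was highest in endothelial-like cells, where control mice had 391, 316, 393 and 412 CPM and ancrod mice 373, 414, 404 and 332 CPM. This was 1.71 times the microglia-like level in the means (379 CPM ± 37.0 against 221 CPM ± 17.2, n = 8 each), in 8 of 8 mice with no overlap. Adam17, the tumor necrosis factor converting enzyme, was highest in microglia-like cells at 249 CPM ± 18.7, and border-associated macrophage-like cells at 225 CPM ± 25.1 did not differ beyond their spread, since microglia-like cells were higher in 5 of 8 mice. Adam9 was highest in border-associated macrophage-like cells, at 160 CPM ± 17.8 against 112 CPM ± 14.8 in smooth muscle-like cells, in 8 of 8 mice. Its next classes, smooth muscle-like, oligodendrocyte precursor-like and fibroblast-like cells, had overlapping ranges.

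Adam8, a protease of myeloid cells, was at 66.0, 143, 220 and 165 CPM in neutrophil-like cells of control mice and at 137, 145, 44.3 and 141 CPM in those of ancrod mice. Neutrophil-like (133 CPM ± 55.2) and monocyte-like cells (118 CPM ± 45.3) did not differ beyond their spread, each being higher in 4 of 8 mice, and in ancrod mice alone the order of the means turned (117 and 141 CPM). Inflammatory macrophage-like cells followed at 74.2 CPM ± 11.6 and supplied 41.9% ± 6.84 of Adam8 UMIs. In contrast, fibroblast-like, pericyte-like and endothelial-like cells had means below 1 CPM, under the 19.3 CPM ± 4.99 of free RNA.

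The patterns over the 14 classes were compared as correlations of mean log2(CPM + 1), which share libraries and depth and are descriptions with no test. Adamts1 and Adamts4 had r = 0.87, Adamts2 and Adamts5 r = 0.86, Adamts4 and Adamts5 r = 0.84 and Adam8 and Adam17 r = 0.83. Outside the family, the genes most like Adam12 were Abitram (r = 0.963), Mc5r (r = 0.934) and Mex3a (r = 0.930). Those most like Adamts4 were Ehd2 (r = 0.967), Tgfb1i1 (r = 0.967) and Cavin1 (r = 0.966), and those most like Adamts5 were Col4a5 (r = 0.963), Aebp1 (r = 0.962) and Ccdc3 (r = 0.957). Adamts2 was closest to Trabd2b (r = 0.977), Kcns3 (r = 0.968) and Parm1 (r = 0.954), and Adamts1 to Amotl1 (r = 0.935), Ston1 (r = 0.924) and Fzd8 (r = 0.920). Adam8 was closest to Cyp4f18 (r = 0.981), Cd300lb (r = 0.964) and Cd300lf (r = 0.962), and Adam17 to Rab20 (r = 0.963), Cd14 (r = 0.956) and Vps26a (r = 0.956). The nearest genes were less alike for Adam9 (Nagk, r = 0.862, Itga9, r = 0.854, and Egr2, r = 0.842), Adam10 (Elk3, r = 0.858, Exoc5, r = 0.848, and Lpar6, r = 0.823) and Adam19 (Recql, r = 0.765, Zc3hav1l, r = 0.755, and Prim2, r = 0.744).

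To ask how fibrinogen depletion bears on the proteases, ancrod and control mice were first compared over all cells of a mouse. None of the 10 genes passed the test (edgeR quasi-likelihood test with Benjamini-Hochberg adjustment over 16150 genes), as did 0% of all genes tested. An unadjusted p under 0.05 was found for 2 of the 10 and for 2304 of all genes, and DESeq2 called 1 of the 10 and 3.01% of all genes. Adam10 was at 225, 208, 227 and 225 CPM in control mice and at 192, 202, 192 and 186 CPM in ancrod mice, and the ancrod values all lay below the control values. Its log2 fold change was -0.23 (SE 0.07, edgeR adjusted p = 0.267, DESeq2 adjusted p = 0.0259), and 4.22% of all genes were lower in this way. Adamts4 was at 10.2, 13.6, 10.8 and 10.3 CPM in control mice and at 15.6, 13, 20.0 and 24.3 CPM in ancrod mice, with a log2 fold change of 0.66 (SE 0.21, edgeR adjusted p = 0.277).

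The proteases of fibroblast-like cells had larger but more variable differences over all cells. The log2 fold changes were 0.74 (SE 0.59) for Adam12, 1.00 (SE 0.57) for Adamts2, 0.98 (SE 0.46) for Adamts5 and 0.71 (SE 0.35) for Adam19, with edgeR adjusted p from 0.369 to 0.561. Fibroblast-like cells gave 7.71% of UMIs in control and 16.9% in ancrod mice on average, and endothelial-like cells 18.6% and 12.2%. As a share of cells, fibroblast-like cells ran from 0.570% to 4.69% in control and from 1.60% to 11.2% in ancrod mice, with overlap. The paper proposes easier dissociation of the injury site as the likely reason for such shares, and its imaging found fewer activated PVF after ancrod. Neither point was tested here. When each mouse was given the same class shares, the mean over mice, the log2 ratio of group means turned from 0.74 to -0.25 for Adam12, from 1.01 to -0.18 for Adamts2, from 0.99 to -0.11 for Adamts5 and from 0.72 to -0.06 for Adam19. For Adamts4 it was 0.70 as measured and 0.47 with the shares held, and with them held every ancrod mouse lay above every control mouse, as for 1.57% of genes. For Adam10 it changed from -0.20 to -0.03. A sum over cells cannot tell fewer cells of a type from less RNA per cell, and no test was run on the levels with shares held.

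**Figure D3:**
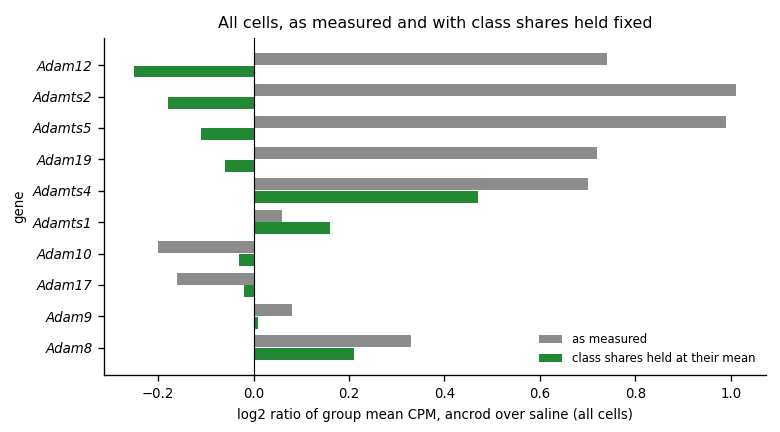
Log2 ratio of group mean CPM over all cells, ancrod over saline (x axis), for each gene (y axis), as measured (grey) and with every cell class held at its mean share of UMIs over the 8 mice (green). The bars of Adam12, Adamts2, Adamts5 and Adam19 change sign, from between 0.72 and 1.01 to between -0.25 and -0.06, and that of Adamts4 stays at 0.47.

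Within fibroblast-like cells, where 9 of the 10 genes had enough UMIs to be tested, none passed (edgeR, 0% of 12783 genes called; 0 members and 1654 genes with an unadjusted p under 0.05; DESeq2 0 members and 1.20% of genes). Of these members 3 had a log2 fold change above 0 and 6 below, with a median of -0.05, and the median over all genes was 0.00115. The Adam12 levels given above differed by -0.27 on the log2 scale (SE 0.14, adjusted p = 0.435), those of Adamts2 by -0.21 (SE 0.12, adjusted p = 0.493) and those of Adamts5 by -0.14 (SE 0.25, adjusted p = 0.866). Adam8, with 102 UMIs in all, was not tested there. The Lama1 cluster, where Adam12 was highest, held 44.5% ± 7.27 of fibroblast-like UMIs in control mice (n = 3, since saline mouse 3 had too few of its cells) and 29.7% ± 9.11 in ancrod mice (n = 4), with overlapping ranges. The Lrrc15 and Fmod cluster, with less Adam12, held 10.1% ± 2.18 (n = 3) and 23.5% ± 8.60 (n = 4), without overlap. Within the Lama1 cluster Adam12 was at 1076 CPM ± 121 in the same control mice and 886 CPM ± 59.2 in ancrod mice, also overlapping, and the part of the cluster shares in the class difference was not tested.

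Of the 120 pairs of member and class, 82 could be tested, and 1 passed in edgeR, where 0.0448% of all pairs of gene and class passed. This was Adamts4 in pericyte-like cells, the mural cells of capillaries. In the pericyte-like fit 46 of 9163 genes were called, or 0.502%, of which 41 were higher in ancrod mice (0.447%), and of the 9 members tested there 1 was called. Adamts4 was at 56.5, 36.6, 51.5 and 41.8 CPM in control mice and at 184, 120, 97.8 and 74.5 CPM in ancrod mice. Every ancrod mouse lay above every control mouse, as was so for 2.66% of genes in this class. The means were 46.6 CPM ± 9.05 and 119 CPM ± 47.2 (SD, n = 4 each), a log2 fold change of 1.42 (SE 0.24, edgeR adjusted p = 0.0173). The values rest on 736 Adamts4 UMIs and on 99 to 219 cells per mouse, and in 0 of 8 mice did the level lie below that of free RNA (7.09 CPM ± 4.62). The difference was 1.52 in the first batch alone and 0.84 between the 2 mice of the other batch.

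The Adamts4 call was lost without saline mouse 2 (log2 fold change 1.33, adjusted p = 0.124), saline mouse 3 (1.46, adjusted p = 0.0662) or saline mouse 4 (1.36, adjusted p = 0.0592), and the difference stayed between 1.13 and 1.58 in all alternatives. Other measures moved with it in the same cells. UMIs per cell were 5862 to 6599 in control and 6819 to 9978 in ancrod mice, and after thinning every cell to 2000 UMIs the log2 fold change was 1.58 (SE 0.34, adjusted p = 0.0197). The summed level of the 12 dissociation-response genes was 2046 to 4577 CPM in control and 4714 to 9292 CPM in ancrod mice. Of these 12 genes 2 were called, Egr1 (log2 fold change 1.21, SE 0.23, adjusted p = 0.0330) and Junb (1.21, SE 0.25, adjusted p = 0.0415), and all 12 had a log2 fold change above 0. Egr1 passed in 13 of 20 alternatives and was lost without ancrod mouse 1 (adjusted p = 0.0886) or any 1 control mouse (0.0645 to 0.151). Junb passed in 8 of 20 and was lost with DESeq2 (adjusted p = 0.0594) and without any 1 mouse (0.0520 to 0.168) except ancrod mouse 3. In the alternatives that lost the call, the log2 fold change was 0.97 to 1.33 for Egr1 and 0.87 to 1.34 for Junb. Their part in the Adamts4 difference was not tested.

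Markers of neighbouring cell types were read in the same pericyte-like sums. Of the 10 fibroblast markers 6 had a higher mean in ancrod mice, and their sum was 1146 to 1331 CPM in control and 1467 to 2080 CPM in ancrod mice, with Dpt at 0. Of the 6 smooth muscle markers, whose class has the highest Adamts4, 1 had a higher mean in ancrod mice, and their sum was 298 to 551 CPM and 451 to 522 CPM, with none at 0. The 6 pericyte markers summed to 17028 to 19434 CPM and 16568 to 20073 CPM. The part of fibroblast RNA in the Adamts4 difference was not tested.

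**Figure D4:**
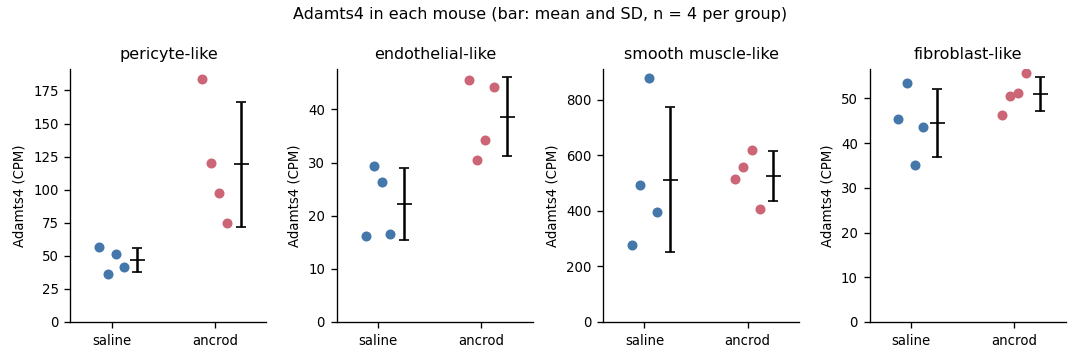
Adamts4 level (CPM, y axis, from 0 and scaled per panel) in each mouse of the saline (blue) and ancrod (red) groups in 4 vascular classes, with the mean and SD (n = 4 per group) beside the points. In pericyte-like cells the 4 ancrod mice lie between 74.5 and 184 CPM, above the control range of 36.6 to 56.5 CPM; in smooth muscle-like cells the groups overlap.

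Other members in pericyte-like cells had log2 fold changes above 0, without passing in edgeR. Adam12 was at 6.03, 1.88, 7.51 and 11.7 CPM in control mice and at 22.3, 8.65, 22.3 and 49.3 CPM in ancrod mice, from 127 UMIs, with ancrod mouse 2 inside the control range. Its log2 fold change was 1.90 (SE 0.51, edgeR adjusted p = 0.117), whereas DESeq2 gave an adjusted p of 0.0165. In 8 of 8 mice this level lay below that of Adam12 in free RNA, which was 38.1, 24.2, 11.1 and 57.0 CPM in control and 47.8, 27.0, 78.8 and 88.8 CPM in ancrod mice. Outside fibroblast-like and oligodendrocyte precursor-like cells, class means of Adam12 ran from 0.213 CPM (neutrophil-like) to 19.4 CPM (T or natural killer cell-like). The part of free RNA in the level and the difference of pericyte-like cells was not tested, so neither is read as pericyte expression. With DESeq2, Adam12 and Adamts4 (adjusted p = 5.55e-05) were the 2 of 9 members past the threshold in this class, where it called 137 of the 9163 genes. Adamts2 had a log2 fold change of 1.10 (SE 0.43, adjusted p = 0.318) and Adamts1 of 0.54 (SE 0.26, adjusted p = 0.442). The median over the 9 members was 0.40, against -0.00939 over all genes, and it counts Adam12 and Adam17, both under free RNA in 8 of 8 mice.

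Adamts4 in endothelial-like cells was at 16.2, 29.4, 26.4 and 16.5 CPM in control mice and at 45.6, 30.4, 34.3 and 44.3 CPM in ancrod mice. The ancrod values all lay above the control values, as for 2.53% of genes. It did not pass (log2 fold change 0.80, SE 0.22, edgeR adjusted p = 0.555; 0% of 12624 genes called, 1130 with an unadjusted p under 0.05; DESeq2 adjusted p = 0.158, 0.151% called). Of its 3533 UMIs 87.8% came from the endothelial cluster led by Selp, Sele and Ackr1, genes of venous endothelium. In that cluster Adamts4 was at 80.5, 82.3, 76.6 and 47.6 CPM in control mice and at 83.6, 70.8, 93.3 and 90.2 CPM in ancrod mice, and the groups overlapped. In the other 4 endothelial clusters no mouse exceeded 24.4 CPM, and the mean was higher in ancrod mice in each, from 5.92 to 10.3, 1.46 to 4.78, 1.01 to 3.33 and 3.02 to 10.7 CPM, with no test run. The cluster held 27.0% ± 6.61 of endothelial UMIs in control and 40.1% ± 5.90 in ancrod mice (n = 4 each), without overlap. How much of the class difference this share carries was not tested.

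In smooth muscle-like cells Adamts4 (log2 fold change 0.05, SE 0.27, adjusted p = 0.999) and Adamts1 (-0.06, SE 0.21, adjusted p = 0.988) had differences far smaller than their spread. Adamts5 had a log2 fold change of 0.70 (SE 0.25, adjusted p = 0.821), from the levels given above, whose groups overlapped. In astrocyte-like cells the log2 fold changes were 1.23 for Adamts4 (SE 0.50) and 0.99 for Adam19 (SE 0.43), each with an adjusted p of 1.00, at mean levels below 4 CPM and under free RNA in 8 of 8 mice. In inflammatory macrophage-like cells Adamts1 had 1.22 (SE 0.47, adjusted p = 1.00) at 1.24 CPM, under free RNA in 8 of 8 mice. For Adam17 in dendritic cell-like cells it was -0.36 (SE 0.14, adjusted p = 0.822) at 109 CPM, below free RNA in 4 of 8 mice. Over the 82 pairs, 9 had an unadjusted p under 0.05 (6.52% of all pairs of gene and class), 56 had a log2 fold change above 0 and 26 below, and DESeq2 called 2 (0.309% of all pairs).

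**Figure D5:**
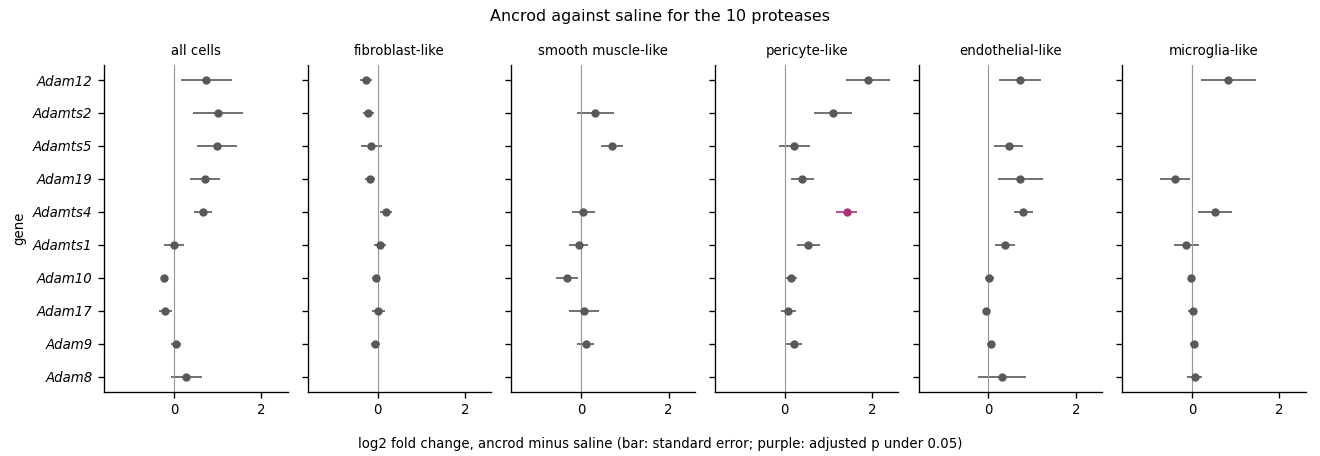
Log2 fold change, ancrod minus saline (x axis, bar: standard error), of each gene (y axis) over all cells and in 5 classes; purple marks an adjusted p under 0.05 and a missing point a gene too low to test. Adamts4 in pericyte-like cells, at 1.42, is the 1 purple point, and the points of fibroblast-like cells lie between -0.27 and 0.19.

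The other genes of the pathway were read from lists that cover relatives, inhibitors, substrates and receptor partners. Over all cells no gene of any list passed in edgeR, where 0% of genes were called. The other ADAM genes had 6 tested, 4 with a log2 fold change above 0, with the smallest p for Adam22 (0.68, SE 0.31, adjusted p = 0.365). Of the 20 other ADAMTS and ADAMTS-like genes 14 were above 0, with the smallest p for Adamts14, a procollagen protease (0.92, SE 0.22, edgeR adjusted p = 0.247, DESeq2 adjusted p = 0.00717). Among 18 inhibitors and regulators 7 were above 0, and Tspan14, a partner of Adam10, had -0.23 (SE 0.08, adjusted p = 0.306). Among 24 shed membrane substrates 12 were above 0, and Tgfa, a growth factor freed by Adam17, had -0.52 (SE 0.06, edgeR adjusted p = 0.178, DESeq2 adjusted p = 1.07e-17), at 54.9 CPM ± 2.38 in control and 39.3 CPM ± 1.89 in ancrod mice, with no overlap. The log2 ratio of means of Tgfa was -0.48 as measured and -0.11 with the class shares held, and that of Adamts14 was 0.95 and 0.52. These 2 genes were the ones DESeq2 called of the 101 tested over all cells, where it called 3.01% of all genes, so the lists held no more calls than the background. Of 14 matrix substrates 13 were above 0, against 47.8% of all genes, with the smallest p for Igfbp3 (0.77, SE 0.36, adjusted p = 0.365). With the class shares held, 5 of the 14 had a log2 ratio of means above 0, and their median went from 0.65 to -0.0450. Of the 20 ADAMTS relatives 7 were above 0 with shares held, with a median of -0.0700. Of 7 receptor partners 3 were above 0, and the integrin subunit Itga6 had -0.34 (SE 0.11, adjusted p = 0.287), with a ratio that turned from -0.30 to 0.02 with shares held. For Adam22 it turned from 0.70 to -0.11, and for Tspan14 it went from -0.20 to -0.07. Of the 12 dissociation-response genes 3 were above 0, and the heat shock gene Hspa1b had -0.56 (SE 0.16, adjusted p = 0.269). By ratio of means 5 of these 12 were above 0 as measured and 9 with shares held, where the median turned from -0.0600 to 0.12, while Hspa1b stayed below 0 at -0.32.

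The choice to name list genes in pericyte-like cells was made after the values were seen. In this class 1 of 9 other ADAMTS genes and 2 of 7 matrix substrates passed, where 0.502% of all genes passed. None of 2 other ADAM genes, 13 inhibitors and regulators, 10 shed substrates or 7 receptor partners passed. Adamts9, which cuts versican, rose by 1.31 on the log2 scale (SE 0.20, adjusted p = 0.0106), from 43.4 CPM ± 11.5 to 105 CPM ± 23.6. Fibronectin (Fn1) rose by 1.30 (SE 0.22, adjusted p = 0.0199) and Col1a2 by 0.76 (SE 0.15, adjusted p = 0.0415), and both are also known as fibroblast genes. Adamts9 was lost without saline mouse 2 (adjusted p = 0.0820) or 3 (0.0546) and after thinning (0.272), and Fn1 without saline mouse 2 (0.105), 3 (0.0984) or 4 (0.0646) and in the first batch alone (0.0672). Col1a2 passed in 11 of 20 alternatives and was lost without any 1 control mouse (0.101 to 0.161), ancrod mouse 1 (0.0971) or ancrod mouse 4 (0.0683). Where the calls were lost, the log2 fold change was 1.02 to 1.28 for Adamts9, 1.20 to 1.35 for Fn1 and 0.59 to 0.80 for Col1a2. In the fibroblast-like, endothelial-like and smooth muscle-like classes no gene of these lists passed in edgeR. DESeq2 called 5 of the 88 tested in fibroblast-like cells (1.20% of all genes), which were Areg (adjusted p = 8.84e-05), Nrg1 (0.00158), Fos (0.0246), Adamts10 (0.0460) and Nr4a1 (0.0487). In pericyte-like cells it called 6 of 60 (137 of 9163 over all genes), which were Adamts9, Fn1, Col1a2, Egr1, Ier2 (adjusted p = 0.00871) and Col3a1 (0.0160). In endothelial-like cells it called 1 of 80 (0.151% of all genes), Igfbp5 (adjusted p = 0.0202), and in smooth muscle-like cells 0 of 40, and the genes it adds were named after their values were seen. The smallest p in fibroblast-like cells was for Areg among shed substrates (3.69, SE 0.75, adjusted p = 0.277, at 0.531 CPM in control and 9.69 CPM in ancrod mice), Adamts10 (-0.45, SE 0.11, adjusted p = 0.277) among relatives and Lrp1 (-0.29, SE 0.11, adjusted p = 0.354) among regulators. Within endothelial-like cells it was for Adamts9 (0.76, SE 0.25, adjusted p = 0.555), Pcsk6 (2.10, SE 0.41, adjusted p = 0.533) and Igfbp5 (1.83, SE 0.42, adjusted p = 0.533), and within smooth muscle-like cells for Fn1 (1.27, SE 0.36, adjusted p = 0.821) and Itga5 (1.76, SE 0.59, adjusted p = 0.821).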

How the data were processed

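Single-cell 3′ libraries were processed by the authors with Cell Ranger 7.1.0 on GRCm39 (mm39), counting exonic and intronic reads. The deposited values are raw UMI counts of every droplet. From these, droplets with at least 2000 UMIs and under 20% mitochondrial UMIs were kept, the highest-scoring doublets (0.8% per 1000 cells) were removed, and cells were clustered (Leiden, resolution 2) without mitochondrial, ADAM and ADAMTS genes. Clusters were named X-like from marker genes; the rules that left clusters unnamed were set after the clusters were seen. Within each mouse, UMIs of a class were added up if it had 10 or more cells there. The mouse was the replicate. Ancrod and control mice were compared with edgeR 4.0.16 (filterByExpr, TMM, glmQLFTest, R 4.3.3) with Benjamini-Hochberg adjustment over all genes of a fit at 0.05, and with DESeq2 1.42.0. The test was checked on simulated counts with 200 genes changed. Log2 changes of 1 were recovered at 51.1% over all cells, 78.2% in fibroblast-like, 86.0% in endothelial-like and 88.7% in inflammatory macrophage-like cells. False calls numbered 7, 9, 3 and 18 in that order, and the pericyte-like fit was not simulated. The counts were drawn with the spread fitted as a trend over the mean, without a spread of each gene's own or a batch. The shares recovered are therefore not the power of the test in these mice. The genes named are the 10 members, the genes of each list past the threshold (or the 1 with the smallest p), and the 3 genes most like each member over classes. Members and lists were chosen with earlier results of these data known. Intervals and spreads cover these mice only; genes on opposite strands that overlap members were left as counted.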

Additional observations from a re-analysis of the deposited data

Results flagged for a closer look

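In groups of 4 mice, a value was marked when its gap to the nearest other mouse exceeded the 95% critical value of Dixon's test; 42 groups were checked and chance marks about 1 in 20. Adam10 over all cells was 208 CPM in saline mouse 2, with the other control mice at 225 to 227 CPM. Adamts4 over all cells was 13.6 CPM in saline mouse 2, with the others at 10.2 to 10.8 CPM. Adam8 in neutrophil-like cells was 44.3 CPM in ancrod mouse 3, with the others at 137 to 145 CPM.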

How the results depend on the processing

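The highest class of all 10 members stayed the same in the 8 fits without 1 mouse and in the other alternatives, except Adam9 after thinning, Adamts5 in control mice alone and Adam8 in ancrod mice alone, the last an alternative chosen after seeing the data (9 of 10 kept each time). No member was called over all cells except 1, Adam10, with DESeq2. Pairs of member and class called were 2 with DESeq2, without filterByExpr, with batch as a term and with a replicate block, and 0 to 2 without 1 mouse. Genes called over all cells were 486 with DESeq2, 2 with doublets kept, 1 after thinning and 0 to 1 without 1 mouse. Genes called in pericyte-like cells were 137 with DESeq2, 29 without TMM factors, 185 without filterByExpr, 136 with a replicate block, 19 in the first batch alone, 17 from cells of at least 4000 UMIs and 0 to 156 without 1 mouse (0 without saline mouse 2, 9 without saline mouse 3 or 4, 11 without ancrod mouse 1, 17 without saline mouse 1, 156 without ancrod mouse 3). The cause was not tested. The Adamts4 difference in pericyte-like cells was 1.13 to 1.58 without 1 mouse. The replicate numbers did not pair the mice over all cells, where their correlations were -0.468, -0.138, 0.0171 and 0.262. The correlations were -0.00682, 0.249, 0.0497 and 0.316 in fibroblast-like cells, where saline mice 2, 3 and 4 were most like the ancrod mouse of their own number. In pericyte-like cells they were 0.0522, 0.0411, -0.0121 and 0.0826, and this held for saline mice 1, 2 and 4. A pairing of the mice in these classes is therefore not excluded.

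Differences over all cells that changed sign with class shares held were -0.25 for Adam12, -0.06 for Adam19, -0.18 for Adamts2 and -0.11 for Adamts5, as the fixed shares themselves bring about. Adamts1 over all cells was -0.17 in the first batch and -0.13 after thinning. Adam10 in endothelial-like cells was -0.02 without filterByExpr. Adam17 in microglia-like cells was -0.03 without TMM factors, -0.00307 in the first batch, -0.00119 with doublets kept and -0.07 after thinning. Without 1 mouse, the differences that changed sign ranged from -0.03 to 0.11 for Adam9 over all cells and in border-associated macrophage-like cells, from -0.10 to 0.26 for Adamts1 over all cells, from -0.22 to 0.17 for Adamts1 and from -0.15 to 0.45 for Adamts4 in smooth muscle-like cells, from -0.05 to 0.08 for Adam10 in endothelial-like and from -0.06 to 0.07 for Adam17 in microglia-like cells. None of these differences was called. Classes with 99 to 219 cells per mouse limit the precision of the pericyte-like values.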
